A study of Mus musculus with 6 samples.

Results

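MHC class II molecules carry peptides from engulfed protein to the cell surface, where CD4+ T cells read them. The classical chains are paired in the endoplasmic reticulum with the invariant chain CD74, which fills the groove and leads the complex to endosomes. There H2-DM takes out the remnant of CD74 and helps peptides to bind, and H2-DO restrains H2-DM. Transcription of the classical chains and CD74 depends on the transactivator CIITA, which is recruited to the promoters by factors that sit on the X and Y boxes. Microglia at rest carry little class II, and a subset of them gains it in ageing and around amyloid, while dendritic cells and B cells carry much more.

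The genes described here were the 10 of the 20129 rows of the deposited expression table whose symbols are H2-Aa, H2-Ab1, H2-Eb1, Cd74, Ciita, H2-DMa, H2-DMb1, H2-DMb2, H2-Oa and H2-Ob. They were taken by symbol, and all 10 were found. Microglia, sorted from brain as living cells bearing CD45 and CD11b, were compared between Il3-/-5xFAD mice (replicates 1, 2 and 3) and 5xFAD mice (replicates 4, 5 and 6), all aged 5 months and labelled C57BL6/J. Every mouse of both groups carried the 5xFAD transgenes, which express mutant human amyloid precursor protein and presenilin under the neuronal Thy1 promoter and drive amyloid deposition. The Il3-/-5xFAD mice in addition lacked interleukin-3, a cytokine, in all tissues. Each library was a pool of 2 male and 2 female mice, so the p-values below measure the spread between pools, and no group without the transgenes was analysed here.

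Levels are in CPM (a gene's reads scaled to a common library total), and the libraries held 27970850 to 37605490 reads. Il3 had no read in the Il3-/-5xFAD libraries, which allows up to 0.0909 to 0.107 CPM at 3 reads, against 1.93, 2.08 and 0.771 CPM in 5xFAD replicates 4, 5 and 6. The microglial genes P2ry12, Tmem119, Cx3cr1, Sall1, Csf1r, Fcrls, Gpr34, Olfml3 and P2ry13 summed to 29396 to 32234 CPM in Il3-/-5xFAD and 27364 to 29100 CPM in 5xFAD, so the defining genes of the labelled cell type were abundant in every library. The most abundant of those named, Csf1r, was at 10136 ± 465 CPM in Il3-/-5xFAD and 9332 ± 302 CPM in 5xFAD (SD, n = 3 each). For the proteins used in the sort, the log2 difference was -0.06 ± 0.08 for Ptprc (CD45) and 0.06 ± 0.10 for Itgam (CD11b), both with SE. In these bulk samples fewer class II-bearing cells and less class II RNA per cell cannot be told apart.

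The promoters of the class II genes are shown as a description, and whether their letters bear on the levels was not tested. RefSeq windows of 300 bases on build GRCm38.p6, reaching from 250 bases before the gene start, were held for 7 of the 10 genes (8 windows, with a pair for H2-DMa), and not for H2-Ab1, Cd74 and Ciita. The expression files used build mm9, and no coordinates were converted. For 6 genes 80 bases around a Y box core are given 5′ to 3′ on the gene's strand, with the Y core ATTGG and any X core ACNGATG in capitals.
H2-Aa: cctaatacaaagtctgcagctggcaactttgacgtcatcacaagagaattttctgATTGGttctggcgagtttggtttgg
H2-Eb1: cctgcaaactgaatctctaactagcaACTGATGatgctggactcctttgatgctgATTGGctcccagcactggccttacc
H2-DMb1: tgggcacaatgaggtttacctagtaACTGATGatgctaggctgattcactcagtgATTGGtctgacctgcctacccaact
H2-DMb2: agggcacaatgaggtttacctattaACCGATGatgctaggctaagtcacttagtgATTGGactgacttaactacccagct
H2-Oa: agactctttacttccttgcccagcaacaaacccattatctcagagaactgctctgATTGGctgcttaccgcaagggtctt
H2-Ob: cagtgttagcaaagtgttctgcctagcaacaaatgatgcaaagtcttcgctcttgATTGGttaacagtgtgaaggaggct

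These stretches lie at chr17:34287847-34287926 on the minus strand for H2-Aa and on the plus strand for the others. They lie at chr17:34305753-34305832 for H2-Eb1, chr17:34153075-34153154 for H2-DMb1, chr17:34145104-34145183 for H2-DMb2, chr17:34092281-34092360 for H2-Oa and chr17:34238793-34238872 for H2-Ob. The Y core began 43 to 90 bases before the start of the gene. Searched on both strands, an X core followed on the same strand by a Y core that starts 10 to 35 bases after it was found in 3 of the 8 windows, those of H2-Eb1 (22 bases between the cores), H2-DMb1 and H2-DMb2 (23 bases each). The same arrangement was found in 0.195% of 32851 such windows of all genes. A Y core, with or without an X core, was in 37.4% of them, and an X core, with or without a Y core, in 9.85%. The stretches of H2-DMb1 and H2-DMb2 were identical at 69 of 80 positions, and those of any other pair at 20 to 32. A match is a description of letters and not a binding site, and a window without one only lacks these letters.

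The classical chain genes and Cd74 had lower levels in every Il3-/-5xFAD library than in any 5xFAD library, but their differences did not pass the test across all genes. H2-Aa, which encodes the alpha chain of the I-A molecule, was at 286.55, 138.85 and 171.48 CPM in Il3-/-5xFAD replicates 1, 2 and 3, and at 294.66, 370.55 and 344.15 CPM in 5xFAD replicates 4, 5 and 6. Il3-/-5xFAD replicate 1 lay just under the lowest 5xFAD library, and the other Il3-/-5xFAD libraries lay far below. The means were 199 ± 77.6 CPM in Il3-/-5xFAD and 336 ± 38.5 CPM in 5xFAD (SD, n = 3 each), and the log2 difference was -0.82 ± 0.20 (SE) with a limma adjusted p of 0.0743.

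H2-Ab1, which encodes the beta chain that pairs with H2-Aa, repeated this order. It was at 287.23, 149.07 and 175.64 CPM in Il3-/-5xFAD replicates 1, 2 and 3, and at 314.86, 363.44 and 370.9 CPM in 5xFAD replicates 4, 5 and 6. Its log2 difference was -0.83 ± 0.18 (SE, limma adjusted p = 0.0580). The beta chain of the I-E molecule is encoded by H2-Eb1. C57BL/6 mice make no I-E at the surface, because their alpha chain gene is defective. H2-Eb1 RNA was nevertheless at 283.2, 131.14 and 187.79 CPM in Il3-/-5xFAD replicates 1, 2 and 3, and at 292.38, 334.46 and 311.34 CPM in 5xFAD replicates 4, 5 and 6. The groups did not overlap, and the log2 difference was -0.71 ± 0.20 (SE, limma adjusted p = 0.104). The defective alpha chain gene, listed as H2-Ea-ps, had no read in any Il3-/-5xFAD library and 2 reads in 5xFAD replicate 5 alone. Its neighbour H2-Eb2 had 4, 0 and 0 reads in Il3-/-5xFAD and 5, 9 and 0 reads in 5xFAD, under the level at which genes were tested.

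Cd74 was the most abundant of the 10 genes. It was at 671.02, 393.17 and 448.97 CPM in Il3-/-5xFAD replicates 1, 2 and 3, and at 718.71, 897.68 and 910.19 CPM in 5xFAD replicates 4, 5 and 6. Here too the Il3-/-5xFAD libraries were all lower, with replicate 1 closest to the 5xFAD range. The mean of Il3-/-5xFAD was 0.599 of that of 5xFAD. The log2 difference was -0.77 ± 0.17 (SE) with a limma adjusted p of 0.0543, and its p ranked 134 among the 11900 genes tested.

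**Figure D1:**
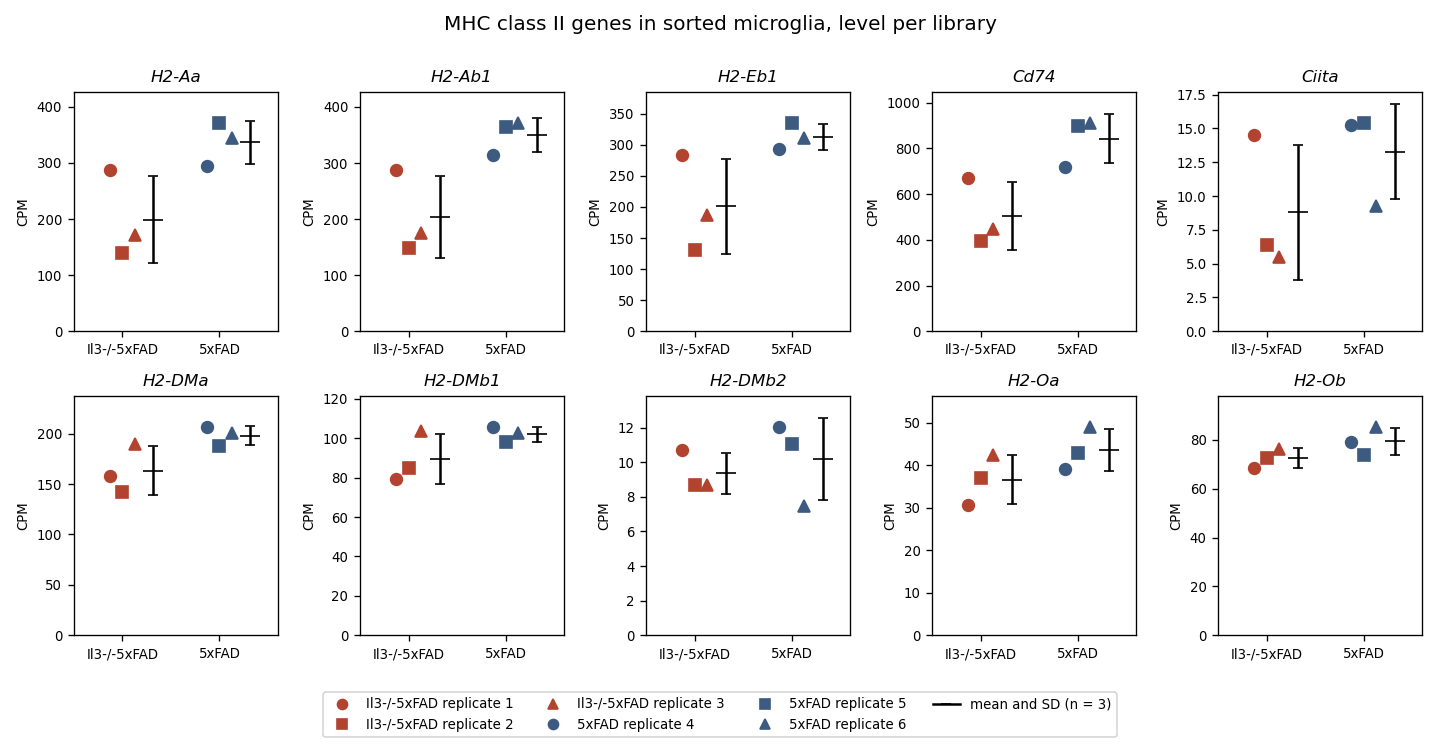
Level of each of the 10 genes in CPM (vertical axes, each from 0) in the 3 Il3-/-5xFAD and the 3 5xFAD libraries; symbols are libraries, and bars show the mean and SD. H2-Aa, H2-Ab1, H2-Eb1 and Cd74 are lower in all 3 Il3-/-5xFAD libraries, with replicate 1 near the 5xFAD range, and the ranges of the other 6 genes overlap.

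Ciita, the transactivator on which these genes depend, was measured at a low level with a wide spread. It was at 14.54, 6.36 and 5.52 CPM in Il3-/-5xFAD replicates 1, 2 and 3, and at 15.23, 15.38 and 9.25 CPM in 5xFAD replicates 4, 5 and 6. The high Il3-/-5xFAD library was again replicate 1, and it exceeded 5xFAD replicate 6, so the groups overlapped. The means were 8.80 ± 4.98 CPM in Il3-/-5xFAD and 13.3 ± 3.49 CPM in 5xFAD (SD, n = 3 each), and the log2 difference was -0.62 ± 0.30 (SE) with a limma adjusted p of 0.338. At 179 to 450 reads a library, Ciita had the largest spread of the 10 genes, with an SD of 56.6% of the mean in Il3-/-5xFAD and 26.3% in 5xFAD. In 5xFAD replicate 6 Ciita was lowest of its group while Cd74 was highest.

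The genes for H2-DM differed less between the genotypes. H2-DMa, the alpha chain of the peptide exchanger, was at 157.75, 142.47 and 189.64 CPM in Il3-/-5xFAD replicates 1, 2 and 3, and at 206.14, 187.72 and 200.13 CPM in 5xFAD replicates 4, 5 and 6. Only Il3-/-5xFAD replicate 3 reached into the 5xFAD range, and the log2 difference was -0.29 ± 0.10 (SE, limma adjusted p = 0.183). Annotated exons of H2-DMa and of Brd2, a gene on the opposite strand at up to 614 CPM, share 360 bases in GENCODE, and those of Ciita and Dexi (up to 16.4 CPM) share 329. Whether counting used the strand is not stated in the labels, so reads from these bases cannot be assigned.

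The beta chain has neighbouring gene copies. H2-DMb1 was at 79.51, 84.66 and 103.61 CPM in Il3-/-5xFAD replicates 1, 2 and 3, and at 105.47, 97.94 and 102.46 CPM in 5xFAD replicates 4, 5 and 6 (log2 difference -0.20 ± 0.10, SE, limma adjusted p = 0.366). H2-DMb2 was at 10.71, 8.66 and 8.7 CPM in Il3-/-5xFAD and at 12.01, 11.04 and 7.5 CPM in 5xFAD (log2 difference -0.09 ± 0.20, SE, limma adjusted p = 0.868). The groups overlapped for either copy. Of the stretches of 50 bases in H2-DMb1 transcripts, 22.7% also occur in H2-DMb2, so reads can be lost or placed at the wrong copy. The sum of both copies was 98.6 ± 11.96 CPM in Il3-/-5xFAD and 112 ± 4.65 CPM in 5xFAD (SD, n = 3 each), and their log2 difference was -0.19 ± 0.10 (SE) with a limma adjusted p of 0.357.

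The genes of H2-DO, which is best known from B cells and some dendritic cells, were measured in every library. H2-Oa, the alpha chain, was at 30.69, 36.97 and 42.38 CPM in Il3-/-5xFAD replicates 1, 2 and 3, and at 39.04, 43.03 and 48.96 CPM in 5xFAD replicates 4, 5 and 6. H2-Ob, the beta chain, was at 68.43, 72.62 and 76.39 CPM in Il3-/-5xFAD and at 79.12, 73.82 and 85.09 CPM in 5xFAD. For each of them Il3-/-5xFAD replicate 1 was the lowest library of all, the reverse of its place among the Il3-/-5xFAD libraries for the classical chains, and the groups overlapped. The log2 differences were -0.25 ± 0.13 for H2-Oa and -0.13 ± 0.09 for H2-Ob (SE, limma adjusted p = 0.379 and 0.525).

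The genes did not all follow the same pattern over the libraries. Among the Il3-/-5xFAD libraries, 6 of the 10 genes were highest in replicate 1 (the classical chains, Cd74, Ciita and H2-DMb2), and 4 were highest in replicate 3 (H2-DMa, H2-DMb1, H2-Oa and H2-Ob). The share of all genes highest in each library was not counted. H2-DMb2 is placed here by its highest library only. Its Pearson coefficient over the 6 libraries was 0.33 with the mean log2 level of the classical chains and Cd74, 0.775 with Ciita and -0.497 with H2-Oa. The summed level of H2-Aa, H2-Ab1, H2-Eb1 and Cd74 was 1528, 812 and 984 CPM in Il3-/-5xFAD replicates 1, 2 and 3, and 1621, 1966 and 1937 CPM in 5xFAD replicates 4, 5 and 6. The summed level of the H2-DM and H2-DO genes was 347, 345 and 421 CPM in Il3-/-5xFAD and 442, 414 and 444 CPM in 5xFAD. In the first sum replicates 2 and 3 of Il3-/-5xFAD stood apart from the other 4 libraries, and in the second replicates 1 and 2 did.

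**Figure D2:**
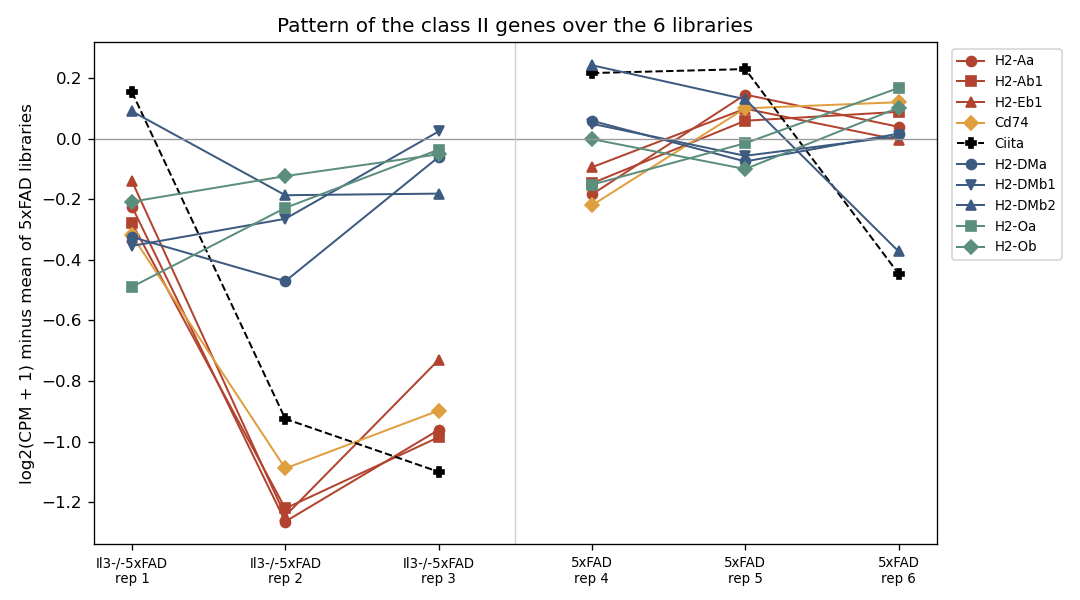
Log2(CPM + 1) of each gene minus its mean over the 5xFAD libraries (vertical axis) in each of the 6 libraries (horizontal axis); lines only join the points of 1 gene within a group. The classical chains and Cd74 run together and lie lowest in Il3-/-5xFAD replicates 2 and 3, whereas H2-DMa, H2-DMb1, H2-Oa and H2-Ob lie near the 5xFAD mean in Il3-/-5xFAD replicate 3.

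Ratios within a library do not depend on its total, but they do depend on Cd74. Cd74 was lowest in Il3-/-5xFAD replicates 2 and 3, so any gene at a steadier level has its highest ratios there. The ratios thus restate the Cd74 levels in part and are no separate evidence of a division. H2-Ab1 was at 42.8%, 37.9% and 39.1% of the Cd74 CPM in Il3-/-5xFAD replicates 1, 2 and 3, and at 43.8%, 40.5% and 40.8% in 5xFAD replicates 4, 5 and 6. H2-Aa stayed between 35.3% and 42.7% of Cd74 over all 6 libraries, and H2-Eb1 between 33.4% and 42.2%. The classical chains thus kept nearly the same proportion to Cd74 in either genotype, with a highest library 1.16 to 1.26 times the lowest.

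For the peptide-loading genes the proportion moved. H2-DMa was at 23.5%, 36.2% and 42.2% of Cd74 in Il3-/-5xFAD replicates 1, 2 and 3, and at 28.7%, 20.9% and 22.0% in 5xFAD replicates 4, 5 and 6. H2-Oa was at 4.57%, 9.40% and 9.44% of Cd74 in Il3-/-5xFAD and at 5.43%, 4.79% and 5.38% in 5xFAD. H2-Ob was at 10.2%, 18.5% and 17.0% in Il3-/-5xFAD and at 11.0%, 8.22% and 9.35% in 5xFAD. Replicates 2 and 3 of Il3-/-5xFAD had the highest proportions for each of H2-DMa, H2-DMb1, H2-DMb2, H2-Oa and H2-Ob. Replicate 1 lay within the 5xFAD range for H2-DMa, H2-DMb1, H2-DMb2 and H2-Ob and below it for H2-Oa, so the groups overlapped. The ratio of Ciita to Cd74 ran from 1.02% to 2.17% and overlapped as well.

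**Figure D3:**
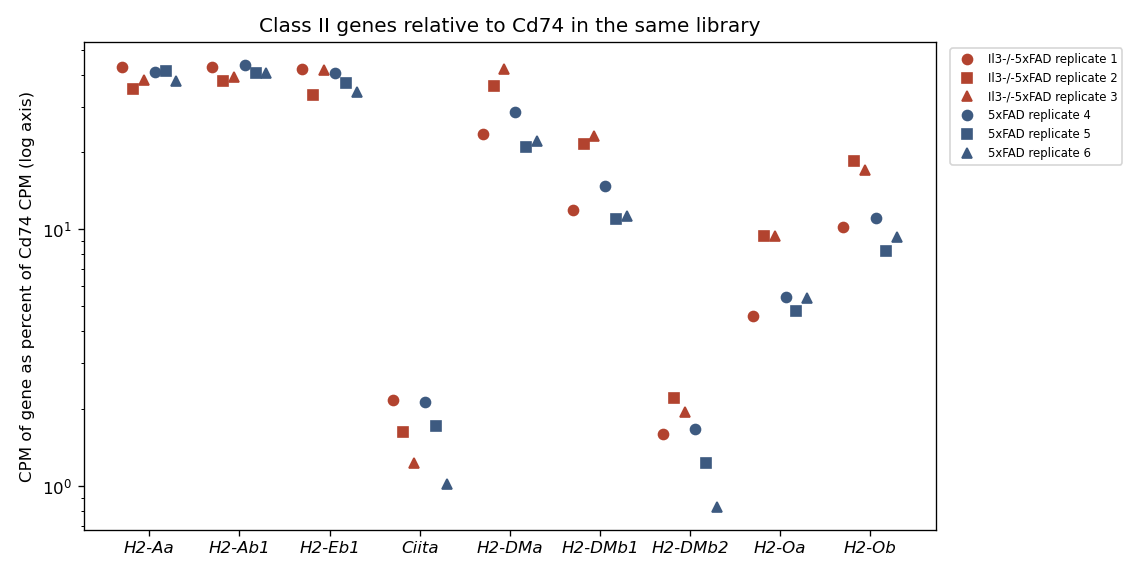
CPM of each gene as a percent of the Cd74 CPM in the same library (vertical log axis); red symbols are the 3 Il3-/-5xFAD libraries and blue symbols the 3 5xFAD libraries. H2-Aa, H2-Ab1 and H2-Eb1 stay between 33.4% and 43.8%, whereas the H2-DM and H2-DO genes are highest in Il3-/-5xFAD replicates 2 and 3.

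Levels of different genes can be set side by side per length. In CPM per kilobase of the longest coding transcript, Cd74 was highest (358 ± 104 in Il3-/-5xFAD and 597 ± 76.0 in 5xFAD, SD, n = 3 each). H2-Aa followed with 176 ± 68.8 in Il3-/-5xFAD and 298 ± 34.2 in 5xFAD, and H2-Ab1 had 168 ± 60.5 in Il3-/-5xFAD and 289 ± 25.1 in 5xFAD. H2-Aa and H2-Ab1 did not differ beyond their spread, while Cd74 was above both. With the longest transcript of any kind, which for H2-Aa is 3223 bases against 1128 for the coding one, H2-Aa had 61.7 ± 24.1 in Il3-/-5xFAD and 104 ± 11.95 in 5xFAD and ranked below H2-Eb1. H2-Eb1 had 120 ± 46.0 in Il3-/-5xFAD and 187 ± 12.6 in 5xFAD. H2-DMa had 81.4 ± 12 in Il3-/-5xFAD and 98.8 ± 4.69 in 5xFAD, and H2-DMb1 had 63.6 ± 9.04 in Il3-/-5xFAD and 72.6 ± 2.70 in 5xFAD. H2-Oa had 33.7 ± 5.38 in Il3-/-5xFAD and 40.1 ± 4.59 in 5xFAD, and H2-Ob had 27.2 ± 1.49 in Il3-/-5xFAD and 29.7 ± 2.11 in 5xFAD, with H2-DMb2 lowest of the H2-DM and H2-DO genes at 6.31 ± 0.79 in Il3-/-5xFAD and 6.87 ± 1.602 in 5xFAD. With the longest transcript of any kind H2-Oa had 27.4 ± 4.365 in Il3-/-5xFAD and 32.6 ± 3.72 in 5xFAD. On that length it did not differ from H2-Ob beyond the spread. Ciita was the lowest of all, at 1.47 ± 0.83 in Il3-/-5xFAD and 2.21 ± 0.58 in 5xFAD.

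All 10 genes passed the expression filter (at least 1 CPM in at least 3 libraries) and all 10 had a log2 difference below 0, with a median of -0.45, against a median of -0.00059 over the 11900 tested genes. By limma, with p-values adjusted over the whole table by Benjamini-Hochberg, 0 of the 10 were called at an adjusted p under 0.05, while 0.882% of all tested genes were called in either direction and 0.63% were called as lower. At an unadjusted p under 0.05, 5 of the 10 were lower (the classical chains, Cd74 and H2-DMa), against 9.83% of tested genes. On the recovered reads edgeR with TMM factors and DESeq2 also called 0 of the 10, and they called 0.294% and 3.45% of tested genes as lower. For 4 of the 10 genes every Il3-/-5xFAD library was below every 5xFAD library, which held for 11.5% of tested genes.

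Whether a gene was called depended on single libraries. Without Il3-/-5xFAD replicate 1, limma called H2-Aa, H2-Ab1, H2-Eb1 and Cd74 lower, with 0.983% of tested genes called lower in that fit. Their log2 differences there were -1.11, -1.10, -0.99 and -0.99, and their limma adjusted p were 0.000765, 0.000256, 0.00365 and 0.00128. Without Il3-/-5xFAD replicate 3, H2-DMa alone of the 10 was called (log2 difference -0.40, limma adjusted p = 0.0322, with 3.12% of tested genes called lower). Without 5xFAD replicate 4, Cd74 alone of the 10 was called (log2 difference -0.88, limma adjusted p = 0.0371, with 1.51% of tested genes called lower). With any of the other 3 libraries left out none of the 10 was called.

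**Figure D4:**
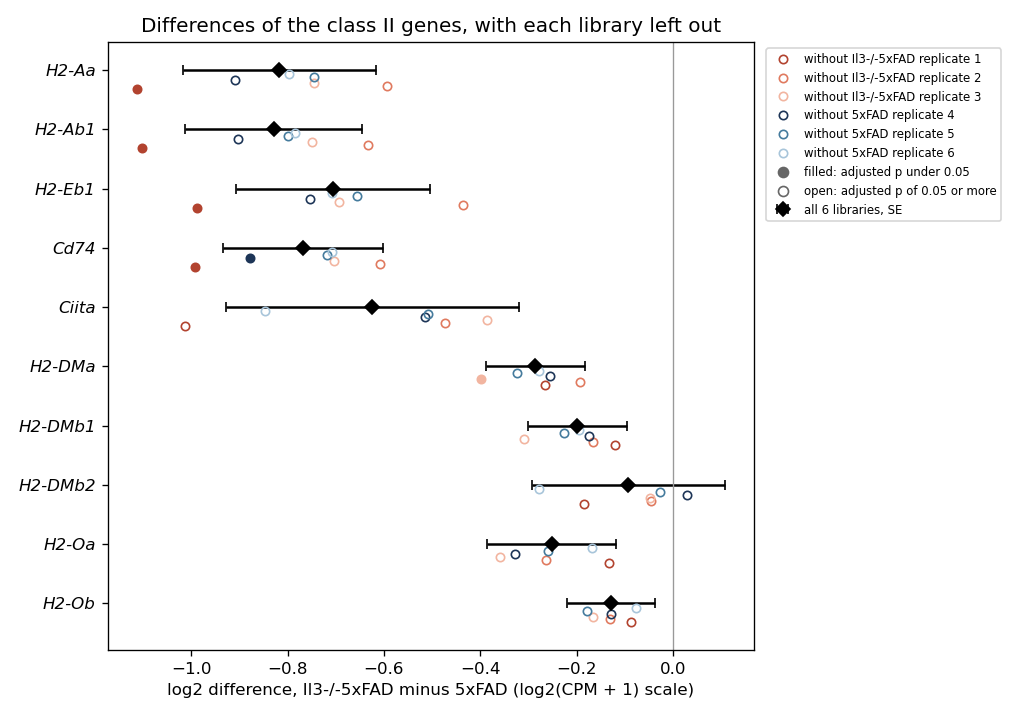
Log2 difference, Il3-/-5xFAD minus 5xFAD, of each gene (diamonds with SE, all 6 libraries) and with each library left out (circles, filled where the limma adjusted p is under 0.05). Filled circles are seen for the classical chains and Cd74 without Il3-/-5xFAD replicate 1, for Cd74 without 5xFAD replicate 4 and for H2-DMa without Il3-/-5xFAD replicate 3.

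Of 13 genes listed for the control of class II transcription, none was called by limma, 2 had a log2 difference below 0, and the median was 0.10 (0.02 without Il3-/-5xFAD replicate 1). Ep300, a histone acetyltransferase, was at 256 ± 31.6 CPM in Il3-/-5xFAD and 220 ± 13.02 CPM in 5xFAD (SD, n = 3 each), and the Y box factor gene Nfya at 210 ± 4.40 CPM in Il3-/-5xFAD and 189 ± 7.98 CPM in 5xFAD. The limma adjusted p were 0.291 and 0.341. Rfx5, the DNA-binding subunit of the X box factor, was named here after its values were seen and was at 34.2 ± 0.52 CPM in Il3-/-5xFAD and 28.6 ± 3.51 CPM in 5xFAD (limma adjusted p = 0.300). Ep300, Nfya and Rfx5 were the 3 genes of the list whose groups did not overlap, all higher in Il3-/-5xFAD. The share of all genes apart and higher was not counted. Among other subunits, also named after their values were seen, log2 differences were -0.09 for Rfxap, 0.02 for Rfxank, 0.26 for Nfyb and -0.12 for Nfyc.

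Interferon-gamma is the best known inducer of Ciita. Of 12 genes of that route none was called and 6 had a log2 difference below 0, with a median of 0.01 and up to 0.03 with 1 library left out. Irf8, a transcription factor of the microglial lineage, was at 737 ± 14.5 CPM in Il3-/-5xFAD and 725 ± 13.1 CPM in 5xFAD, and Ifngr1, a receptor chain, at 680 ± 85.2 CPM in Il3-/-5xFAD and 627 ± 40.5 CPM in 5xFAD (SD, n = 3 each, limma adjusted p = 0.917 and 0.644). The cytokine gene Ifng itself, named after its values were seen, was at 3.86, 3.16 and 2.79 CPM in Il3-/-5xFAD replicates 1, 2 and 3, and at 4.58, 5.23 and 10.1 CPM in 5xFAD replicates 4, 5 and 6. Its groups did not overlap, and its log2 difference was -0.78 ± 0.27 (SE, limma adjusted p = 0.178).

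Of 15 genes listed for class II antigen processing and surface turnover, none was called, and the median log2 difference was -0.25 (-0.15 without Il3-/-5xFAD replicate 1). The list also held Mif, Cd44, Cd63 and Cd82, at -0.42, -0.89, -0.63 and -0.16, and no median was taken without them. A log2 difference below 0 was seen for 13 of the 15, against 50.1% of all tested genes. The most abundant were Cst3, which encodes the protease inhibitor cystatin C (15988 ± 1797 CPM in Il3-/-5xFAD and 18335 ± 888 CPM in 5xFAD), and Ctsd, which encodes cathepsin D (14982 ± 2728 CPM in Il3-/-5xFAD and 17268 ± 1344 CPM in 5xFAD, SD, n = 3 each). Their limma adjusted p were both 0.606. Among genes named after their values were seen, Ctss, which encodes the protease that trims the invariant chain, was at 7304 ± 822 CPM in Il3-/-5xFAD and 9045 ± 222 CPM in 5xFAD (SD, n = 3 each, limma adjusted p = 0.294). Ifi30, the thiol reductase that unfolds antigens, was at 109, 90.2 and 119 CPM in Il3-/-5xFAD replicates 1, 2 and 3 and at 147, 144 and 149 CPM in 5xFAD replicates 4, 5 and 6 (log2 difference -0.47 ± 0.10, SE, limma adjusted p = 0.0510). Of 6 tested co-stimulation genes none was called, with a median log2 difference of -0.10 (-0.05 without Il3-/-5xFAD replicate 2 and -0.06 without 5xFAD replicate 5). The most abundant of them were Cd83, at 906 ± 371 CPM in Il3-/-5xFAD and 715 ± 96.5 CPM in 5xFAD, and the CD28 ligand gene Cd86, at 257 ± 22.8 CPM in Il3-/-5xFAD and 279 ± 19.5 CPM in 5xFAD (SD, n = 3 each).

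Markers of dendritic cells shared only part of the library order of the classical chains. Of 14 dendritic cell marker genes measured, 11 were highest, among the Il3-/-5xFAD libraries, in replicate 1, and none was at 0 in all libraries. The same count was 6 of 10 for monocyte, 5 of 8 for T cell and 3 of 10 for neutrophil markers, and it was not made over all genes. Il3-/-5xFAD replicate 1 had reads for 17245 genes, against 16584 in replicate 2 and 14435 in replicate 3. Siglech, which microglia also express, made up 93.2% of their summed CPM, which ran from 1151 to 1234 in Il3-/-5xFAD and from 1168 to 1194 in 5xFAD, and without it the sum was 94.2, 59.4 and 69.6 CPM in Il3-/-5xFAD replicates 1, 2 and 3, and 87.8, 88.8 and 85.2 CPM in 5xFAD replicates 4, 5 and 6. As with the classical chains, Il3-/-5xFAD replicates 2 and 3 were the lowest libraries, but replicate 1 was the highest of all. Il3-/-5xFAD replicates 2 and 3 also had the lowest sums of monocyte markers, T cell markers and border macrophage markers without Stab1. Cd209a was at 22.4, 9.69 and 14.2 CPM in Il3-/-5xFAD and at 20.5, 15.5 and 17.1 CPM in 5xFAD, and the dendritic cell factor gene Zbtb46, named after its values were seen, was at 5.71, 2.77 and 3.55 CPM in Il3-/-5xFAD and at 3.40, 5.78 and 4.41 CPM in 5xFAD. Itgae, also named after its values were seen, had another order. It was at 5.98, 5.61 and 6.49 CPM in Il3-/-5xFAD and at 8.58, 8.48 and 11.4 CPM in 5xFAD. Alone of the 12 tested, its groups did not overlap (limma adjusted p = 0.154), and 11.5% of all tested genes were apart and lower in the same way. Which cells carried Itgae RNA was not tested. Of the 12 tested dendritic cell markers none was called, and their median log2 difference was -0.21, against -0.47 without Il3-/-5xFAD replicate 1, -0.05 without Il3-/-5xFAD replicate 2 and -0.14 without Il3-/-5xFAD replicate 3 or without 5xFAD replicate 5. The part of such cells in the class II levels was not tested.

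The summed markers of monocytes, T cells and neutrophils did not overlap between the genotypes and were lower in Il3-/-5xFAD. As single genes, 11.5% of all tested had groups apart and lower in Il3-/-5xFAD, and 0.63% were called lower by limma. The summed CPM of 10 monocyte markers ran from 94.2 to 210 in Il3-/-5xFAD and from 221 to 416 in 5xFAD, and 3 of the 9 tested were called, all lower (Ly6c2, Gda and Itgal). Without Itgal, its most abundant gene, the monocyte sum was 169.8, 69.7 and 148.5 CPM in Il3-/-5xFAD replicates 1, 2 and 3. In 5xFAD replicates 4, 5 and 6 it was 168.5, 350.1 and 264.9 CPM, so without Itgal the groups overlapped. The sums of T cell markers without Cd8a and of neutrophil markers without Csf3r stayed apart. The sum of 8 T cell markers ran from 38.3 to 51.5 CPM in Il3-/-5xFAD and from 74.8 to 168 CPM in 5xFAD, and 3 of 8 were called, all lower (Cd3d, Cd3g and Lck). The sum of 10 neutrophil markers ran from 905 to 1449 CPM in Il3-/-5xFAD and from 1888 to 3876 CPM in 5xFAD, and 5 of 10 were called, all lower (Camp, S100a8, S100a9 and Mmp9, and Retnlg, named after its values were seen to complete the count). For 10 border-associated macrophage markers, of which none was called, the sum ran from 1103 to 1281 CPM in Il3-/-5xFAD and from 925 to 1010 CPM in 5xFAD, while without the most abundant, Stab1, it ran from 107 to 140 CPM in Il3-/-5xFAD and from 137 to 174 CPM in 5xFAD. Mrc1, the mannose receptor, was at 60.1 ± 11.3 CPM in Il3-/-5xFAD and 68.7 ± 9.84 CPM in 5xFAD (SD, n = 3 each). The sum of 10 B cell markers ran from 334 to 363 CPM in Il3-/-5xFAD and from 355 to 430 CPM in 5xFAD, with Ighm making up 84.0% of it. Without Ighm the sum was 42.6, 46.3 and 53.1 CPM in Il3-/-5xFAD replicates 1, 2 and 3, and 56.2, 79.3 and 73.7 CPM in 5xFAD replicates 4, 5 and 6, so that the groups did not overlap and Il3-/-5xFAD was lower. None of the 3 tested B cell markers was called. Ighm, the heavy chain of IgM, was at 302 ± 19.1 CPM in Il3-/-5xFAD and 314 ± 34.6 CPM in 5xFAD (SD, n = 3 each). Cd22, an inhibitory receptor of B cells, was at 24.2, 35.8 and 30.6 CPM in Il3-/-5xFAD replicates 1, 2 and 3, and at 42.0, 60.2 and 53.9 CPM in 5xFAD replicates 4, 5 and 6. Its groups did not overlap, and its log2 difference was -0.77 ± 0.16 (SE) with a limma adjusted p of 0.0501. Cd22 was the most abundant gene in the sum without Ighm, and whether its RNA came from B cells was not tested. The next was Cd79b, named after its values were seen. It was at 17.2, 9.62 and 20.4 CPM in Il3-/-5xFAD and at 11.8, 16.4 and 15.4 CPM in 5xFAD, and the groups overlapped. The separation of that sum is therefore not read as a trait of the whole list. Of the 10 markers 6 were under 1 CPM in every library, and the B cell receptor component gene Cd79a, named after its values were seen, was at 0.30, 0.36 and 0 CPM in Il3-/-5xFAD and at 0.46, 0.34 and 0.90 CPM in 5xFAD. The parts of these cells in the class II levels were not tested.

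**Figure D5:**
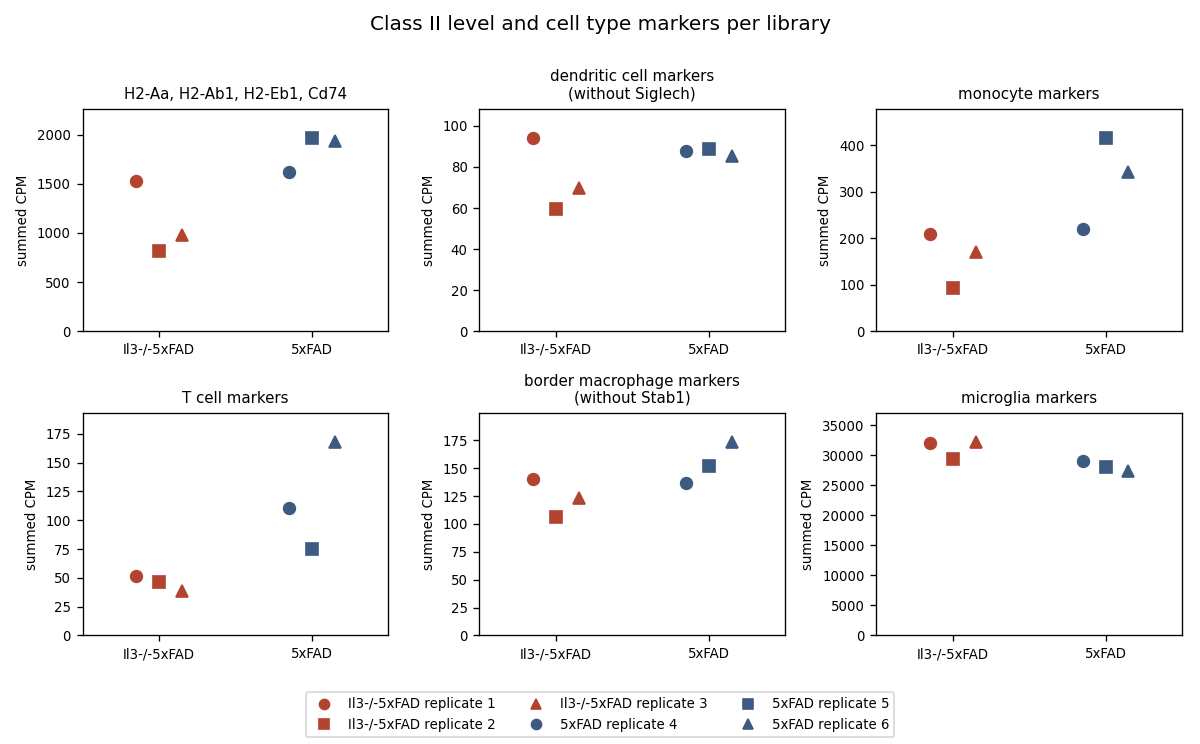
Summed CPM per library (vertical axes, from 0) of the classical chains with Cd74 and of marker lists of other cell types, with Siglech left out of the dendritic cell list and Stab1 out of the border macrophage list; red symbols are Il3-/-5xFAD and blue symbols 5xFAD libraries. Il3-/-5xFAD replicates 2 and 3 are the lowest libraries in every panel except that of the microglia markers, which sum to 27364 CPM or more in every library.

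The patterns most like the mean log2 level of H2-Aa, H2-Ab1, H2-Eb1 and Cd74 over the 6 libraries were those of Irg1, Nop16, 4930506M07Rik, Axin2 and Gcdh, out of 11890 other tested genes. Their Pearson coefficients were 0.986 to 0.995, a ranking over 6 libraries that share the group difference and is given as a description. Irg1, which encodes the enzyme that makes itaconate in activated macrophages, was at 4.87, 1.85 and 2.55 CPM in Il3-/-5xFAD replicates 1, 2 and 3, and at 5.58, 7.83 and 6.59 CPM in 5xFAD replicates 4, 5 and 6. On the same measure the coefficient was 0.80 for Ciita, 0.62 for H2-DMa and 0.28 to 0.33 for the other H2-DM and H2-DO genes.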

How the data were processed

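RNA of sorted microglia was sequenced in 6 libraries, 3 per genotype, from polyA-selected directional libraries per the labels' protocols. The authors deposited CPM values (reads scaled to a common library total). STAR, HTSeq, edgeR and build mm9 are listed, without roles, per the submitters' processing notes; for annotation, counting mode and filters the sources used here give nothing. All deposited CPM values were whole multiples of 1 read (within 0.01 reads), so reads were recovered. The 11900 genes (59.1%) that reached 1 CPM in 3 or more libraries entered a two-sided limma test (version 3.58.1 in R 4.3.3, with variance trend) of log2(CPM + 1), with Benjamini-Hochberg adjustment. Log2 differences are Il3-/-5xFAD minus 5xFAD and understate changes of low genes. Alternatives were other pseudocounts (0.25 and 5), filters, scalings and variance models, each library left out, and edgeR 4.0.16 and DESeq2 1.42.0 on recovered reads. A length per coding transcript was added after the data were seen. The limma step was tested on simulated data. The members, the 12 other gene lists and the rule for named genes (all members, up to 4 called genes of a list or its 2 most abundant, and the 5 genes most alike; others are marked in the text) were chosen with earlier results of these data known. Groups and replicate numbers came from sample titles. Libraries of a group differed beyond sampling noise, the lowest chi-square over its degrees of freedom being 22.1. Transcript lengths, shared stretches and overlaps came from GENCODE M21. Floors of 3 reads cover counting error only. Some marker genes of the lists are not reported here and entered no sum.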

Additional observations from a re-analysis of the deposited data

How the results depend on the processing

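No paired analysis was possible because the groups share no replicate number. All 10 class II genes kept a log2 difference below 0 in all 17 alternatives, except H2-DMb2, which was at 0.028 without 5xFAD replicate 4 (adjusted p = 0.965). None of the 10 was called in the 11 alternatives that kept every library. With 1 library left out, between 0 and 4 of the 10 were called, and log2 differences ran from -1.11 to -0.59 for H2-Aa, -1.10 to -0.63 for H2-Ab1, -0.99 to -0.44 for H2-Eb1, -0.99 to -0.61 for Cd74, -1.01 to -0.39 for Ciita, -0.40 to -0.19 for H2-DMa, -0.31 to -0.12 for H2-DMb1, -0.28 to 0.028 for H2-DMb2, -0.36 to -0.13 for H2-Oa and -0.18 to -0.08 for H2-Ob. The median of the border macrophage markers ran from -0.45 to -0.14, that of the 3 tested B cell markers from -0.15 to 0.03, that of the dendritic cell markers from -0.47 to -0.05, that of the monocyte markers from -1.37 to -0.62 and that of the neutrophil markers from -2.34 to -1.27. The count over all genes was 30 higher and 75 lower, and with 1 library left out it ran from 9 to 234 higher and from 6 to 371 lower. It was 6 higher and 2 lower with no filter, where more genes were tested, 5 and 5 without the variance trend, and 194 and 411 by DESeq2. Lower calls were 44 with a mean of at least 5 CPM, 41 with median-ratio scaling, 46 with quantile normalization, 35 by edgeR with TMM (25 higher) and 42 by edgeR with library totals (27 higher). The causes of these moves were not tested. Depth limits Ciita (179 reads at the lowest) and H2-DMb2 (244 reads) more than the classical chains (3693 reads or more).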
